A study of Mus musculus with 18 samples.

Results

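Retinoids are made from vitamin A, and the 9 genes described here carry them, make retinoic acid from them or bind it: Rbp2, Rbp4, Crabp2, Rdh10, Aldh1a1, Aldh1a2, Aldh1a3, Rara and Rarg. They were taken by symbol from the 35642 gene symbols of the TPM table, and all 9 were found. A TPM value is an abundance per transcript length, on a scale that sums to the same total in every library. The members were chosen by the TPM values themselves, because Rbp2 was low in the cells of line 1151 labelled knockout and Rbp4 was low in the cells labelled knockout of both lines. Those values therefore chose the set and are given below as a description, with no test. For both genes the whole change between the 1151 groups, and for Rbp4 the whole change between the 2838 groups, counts as used.

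PolyA RNA had been sequenced from mouse pancreatic tumour cells in culture, without treatment, and the study asked about Mcu, which encodes the pore of the mitochondrial calcium uniporter. All cells came from mice called KPCY, which carry KrasLSL-G12D/+ together with Trp53 LSL-R172H/+, the transgene Pdx1-Cre and the reporter R26LSL-Yfp/LSL-Yfp. The Pdx1 promoter drives Cre in pancreatic progenitors and so opens the mutant alleles in the pancreatic lineage. The design text says that the mice were with or without a floxed Mcu allele. Age and sex of the mice are not given in the sources used here. Line 1151 was labelled a Cre knockout of Mcu and was measured with an empty vector (called labelled knockout here) and with MCU put back (labelled re-expressing), both kept in puromycin. Line 2838 was measured as clones 42 and 17, labelled CRISPR knockouts of Mcu, and as clones 22 and 15, labelled Mcu wild type and carrying an empty vector. Each of these 6 groups had 3 libraries, 18 in all. Each 2838 group is a single clone. The labels do not say whether the 3 libraries of a group are separate cultures, and p-values then measure only the spread between these libraries, which may be technical. The labels give batch 1 to line 1151 and batch 2 to line 2838, so that levels set across the lines also compare batches.

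Several facts of the libraries bear on every value below. Mcu itself did not follow the labels in line 1151, with 15.0 ± 1.63 TPM under the knockout label and 14.3 ± 1.06 TPM under the re-expressing label (SD, n = 3 each). Among 2838 clones, Mcu was low in clone 42 (11.4 ± 0.888 TPM) but high in clone 17 (119 ± 4.79 TPM), both labelled knockout, against 83.3 ± 20.8 TPM in wild-type clone 22 and 75.2 ± 6.44 TPM in wild-type clone 15. Directions below are therefore directions between labels. Replicate 3 of wild-type clone 22 stood apart, with an upper quartile of 3.73 TPM, against 6.36 to 7.85 TPM in the other 17 libraries, and calls of members that change without it are given both ways. Of 7 markers of ductal epithelium, 6 or 7 averaged at least 1 TPM in every group. Their levels differed between the 1151 groups, with the keratin gene Krt7 at 237 ± 62.3 and 39.1 ± 7.32 TPM in cells labelled knockout and re-expressing, and Krt19 at 385 ± 4.67 and 826 ± 36.5 TPM (SD, n = 3 each). Epcam averaged at least 1 TPM in the 1151 cells labelled knockout alone. The 7 markers of fibroblasts and stellate cells summed to at most 2.06 TPM in any library, the 5 endocrine markers to at most 0.0352 TPM and the 5 leukocyte markers to at most 6.33 TPM, where Cd68 alone averaged 1 TPM or more. The 5 acinar markers reached 28.8 TPM, carried by Cela1. In bulk RNA, fewer cells with a transcript and less transcript per cell cannot be told apart.

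Cells take up retinol, the circulating form of vitamin A, bound to the plasma carrier RBP4, and inside the cell small binding proteins such as RBP2 and CRABP2 hold retinoids in solution and pass them to enzymes or to the nucleus. RDH10 oxidises retinol to retinal, and the retinal dehydrogenases ALDH1A1, ALDH1A2 and ALDH1A3 oxidise retinal to retinoic acid. Retinoic acid binds the nuclear receptors RARα and RARγ (genes Rara and Rarg), which pair with RXR receptors on DNA and switch target genes. CYP26 enzymes break retinoic acid down. Rbp2 is best known from absorptive cells of the small intestine and Rbp4 from hepatocytes and fat cells. Retinoic acid made by ALDH1A enzymes also patterns the embryonic pancreas.

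Rbp2, the intestinal retinol-binding protein (ENSMUSG00000032454.9), spans chromosome 9, 98486115 to 98509781, plus strand, in GRCm38, the assembly that mm10 names. Its promoter window, from 250 bases before to 50 bases after the RefSeq start, is shown because this gene had the largest difference of the 9 between the 1151 groups. In the window chr9:98490287-98490586 on the plus strand of GRCm38.p6, from RefSeq, capitals mark the half-site AGGTCA that retinoid receptors bind (here as TGACCT, so on the opposite strand) and the TATA box letters TATAAA (on the opposite strand as TTTATA, and once on the gene's strand).
Rbp2 promoter: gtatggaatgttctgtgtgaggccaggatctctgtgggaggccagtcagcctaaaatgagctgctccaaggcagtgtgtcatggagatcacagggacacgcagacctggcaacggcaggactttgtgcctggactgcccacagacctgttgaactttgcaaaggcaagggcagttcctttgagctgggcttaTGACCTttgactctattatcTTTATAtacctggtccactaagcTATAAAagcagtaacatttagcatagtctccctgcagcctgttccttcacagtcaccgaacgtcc
The half-site starts at position -58 from the RefSeq start, the opposite-strand TATAAA at -38 and the gene-strand TATAAA at -15. The half-site alone is common: AGGTCA was found on either strand in 16.3% of 32851 mouse promoter windows of 300 bases, and TATAAA in 13.6%. Direct repeats of AGGTCA spaced by 1, 2 or 5 bases, also searched on both strands and each overlapping the half-site search, were in 0.0396%, 0.00913% and 0.00913% of those windows. None of the 3 repeats was, letter for letter, in any of the 12 windows that RefSeq gave for 6 of the 9 genes. Imperfect repeats were not searched for. These matches describe letters, not binding.

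Rbp2 was at 5.82, 4.29 and 4.76 TPM in the 1151 libraries labelled knockout, against 193, 197 and 188 TPM in those labelled re-expressing. The gene was thus near the level of line 2838 in cells labelled knockout, and the 3 re-expressing libraries stood alone. The log2 change was -5.03 (SE 0.10), computed like all changes here on log2(TPM + 1), where changes of low genes come out too small. That value chose the set and carries no test. In line 2838 Rbp2 was at 2.08, 1.40 and 2.45 TPM in knockout clone 42 and 3.12, 2.57 and 4.11 TPM in knockout clone 17, against 2.91, 2.64 and 4.26 TPM in wild-type clone 22 and 7.54, 7.35 and 5.58 TPM in wild-type clone 15. Libraries labelled knockout and wild type overlapped, and clone 15 was the highest. The change over clone means was -0.70 (SE 0.39, limma adjusted p = 0.999), and -0.62 without replicate 3 of clone 22 (adjusted p = 0.885).

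The 4 pairs of clones gave different pictures for Rbp2. Knockout clones 42 and 17 were both lower than wild-type clone 15, with log2 changes of -1.40 (limma adjusted p = 0.0018) and -0.88 (adjusted p = 0.0272). Against wild-type clone 22 neither pair passed, with -0.52 for clone 42 (adjusted p = 0.163) and 0.0026 for clone 17 (adjusted p = 0.997). Without replicate 3 of clone 22 these were -0.36 (0.234) and 0.16 (0.621), still not past the threshold. Between clones of 1 label Rbp2 did not pass with all libraries, at -0.52 in clone 42 relative to clone 17 (adjusted p = 0.14) and -0.88 in clone 22 relative to clone 15 (0.0758). Both passed without that library, at -0.52 (0.0441) and -1.04 (0.017). Over all 6 groups the order of means put 1151 re-expressing first and wild-type clone 15 next. The 1151 cells labelled knockout overlapped with clone 15 in their library ranges, as clone 22 did with clone 17, and knockout clone 42 was last.

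Markers of enterocytes, where Rbp2 is best known, did not share a direction in line 1151, and Vil1 carried the difference in their sum. The 9 markers summed to 26.1 to 27.9 TPM in cells labelled knockout, against 56.3 to 60.6 TPM in cells labelled re-expressing. At least 1 TPM was reached by 2 of the 9 in cells labelled knockout and by 3 in cells labelled re-expressing. Vil1, the brush-border protein villin, was at 4.91 ± 0.937 TPM in cells labelled knockout and 41.3 ± 2.18 TPM in cells labelled re-expressing (SD, n = 3 each). Cdx2, an intestinal transcription factor, was the other way round, at 21.2 ± 0.494 TPM and 15.4 ± 0.493 TPM in the same order of groups. So were the means of Alpi (0.787 and 0.560 TPM) and Apoa1 (0.237 and 0.0868 TPM), with overlapping libraries. Fabp2, also low, went with Rbp2 (0.0745 and 1.225 TPM). Fabp1, Apoa4 and Sis, which define absorptive cells, and Cdx1 were listed at 0 in all 6 libraries of this line. In line 2838 the sum was 37.5 to 49.4 TPM in clone 42 and 64.2 to 70.6 TPM in clone 17, against 32.4 to 44.3 TPM in clone 22 and 49.0 to 67.0 TPM in clone 15. The part of these markers in the Rbp2 difference was not tested.

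Rbp4, the plasma retinol carrier (ENSMUSG00000024990.13), spans chromosome 19, 38116629 to 38125281, minus strand, in GRCm38. By TPM, which are per length, it was the most abundant of the 9 genes in 5 of the 6 groups, with Rdh10 above it in knockout clone 42. RefSeq gives it a pair of promoter windows, and the one shown, chr19:38124762-38125061 on the minus strand of GRCm38.p6, holds TATAAA at position -28 (in capitals). The other window, chr19:38125272-38125571, held none of the 5 motifs searched.
Rbp4 promoter: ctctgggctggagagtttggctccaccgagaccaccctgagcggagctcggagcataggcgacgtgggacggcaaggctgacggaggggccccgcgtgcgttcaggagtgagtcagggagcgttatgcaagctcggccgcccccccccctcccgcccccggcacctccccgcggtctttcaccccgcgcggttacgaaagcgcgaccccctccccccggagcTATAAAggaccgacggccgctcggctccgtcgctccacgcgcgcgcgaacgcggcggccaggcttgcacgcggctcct

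Rbp4 was at 380, 366 and 436 TPM in the 1151 libraries labelled knockout, against 832, 812 and 814 TPM in those labelled re-expressing. The 2838 libraries had 105, 118 and 114 TPM in knockout clone 42 and 176, 172 and 179 TPM in knockout clone 17. The clones labelled wild type had 354, 389 and 472 TPM (clone 22) and 544, 585 and 551 TPM (clone 15). In each line every library labelled knockout was below every library it was set against. Groups without overlap, in either direction, were found for 67.2% of the genes tested in line 1151 and 5.04% in line 2838. The log2 changes were -1.06 (SE 0.08) in line 1151 and -1.75 (SE 0.26) over the clone means of line 2838, from -2.31 to -1.19 over the 4 clone pairs. These values also chose the set and carry no test. Without wild-type clone 22 replicate 3 the 2838 change was -1.69. Mcu RNA was high in clone 17, low in clone 42 and alike in the 1151 groups. Mcu RNA does not show the level of MCU protein, and a relation of Rbp4 to Mcu was not tested.

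**Figure D1:**
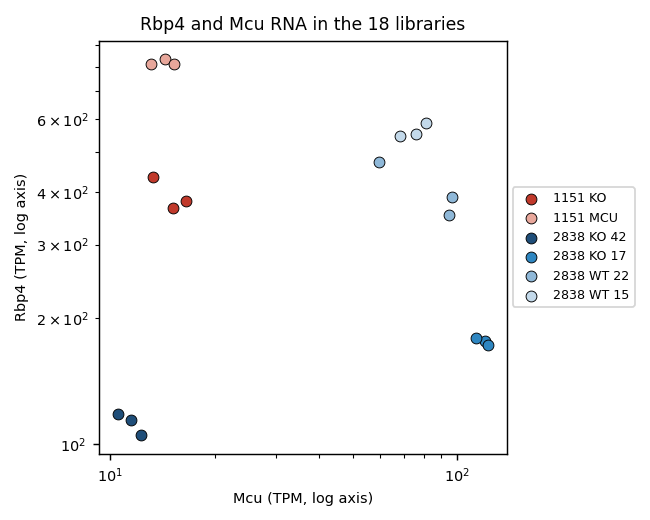
Rbp4 against Mcu in the 18 libraries, both in TPM on log axes, with 1 point per library and a colour per group. Rbp4 stood between 105 and 179 TPM in the 2838 clones labelled knockout, at Mcu levels at both ends of the axis, against 354 to 585 TPM in the clones labelled wild type.

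The rule did not use the differences between clones of the same label, and there Rbp4 fell in clone 42 relative to clone 17 (log2 change -0.64, SE 0.11, limma adjusted p = 0.00241). The change was of like size with median-of-ratios scaling (-0.63) and with each library centred per chromosome (-0.61), but did not pass there (adjusted p = 0.0691 and 0.0895). Between wild-type clones 22 and 15 the change was -0.48 (SE 0.11, adjusted p = 0.0541), and without replicate 3 of clone 22 it was -0.59 (adjusted p = 0.00147). In the order of means, 1151 re-expressing came first and wild-type clone 15 next, while wild-type clone 22 and the 1151 cells labelled knockout overlapped in their library ranges. Knockout clones 17 and 42 followed, each apart from its neighbour.

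Hepatocyte markers summed to 200 to 258 TPM in the 1151 cells labelled knockout, against 300.1 to 327 TPM in those labelled re-expressing. Of the 7, 3 averaged at least 1 TPM in cells labelled knockout (Apoa2, Apob and Hnf4a) and 4 in cells labelled re-expressing, with Ttr as the fourth. The members did not share a direction: Hnf4a, a transcription factor of liver and gut, was at 180 ± 29.3 and 307 ± 16.9 TPM in cells labelled knockout and re-expressing, and Apob, the structural protein of lipoproteins, at 43.5 ± 0.697 and 2.30 ± 0.37 TPM (SD, n = 3 each). In line 2838 the sum was 422 to 539 TPM in clone 42 and 549 to 589 TPM in clone 17, against 199 to 718 TPM in clone 22 and 536 to 694 TPM in clone 15. The low end of clone 22 was replicate 3 alone, where Hnf4a was at 95.5 TPM, against 556 and 539 TPM in replicates 1 and 2, which summed to 718 and 691 TPM. The defining hepatocyte genes Alb and Tat were at or near 0, with a mean of at most 0.556 TPM for Alb in any group. The adipocyte list was carried by Cidec, a lipid-droplet protein, at 0.378 ± 0.0914 and 9.65 ± 1.02 TPM in 1151 cells labelled knockout and re-expressing. The 5 adipocyte markers summed to 0.633 to 0.658 TPM in the 1151 cells labelled knockout, with none at 1 TPM, against 8.99 to 10.8 TPM in the re-expressing cells, with 1 at that level. In line 2838 they summed to 25.1 to 30.3 TPM in clone 42 and 91.7 to 100.1 TPM in clone 17, against 31.4 to 47.3 TPM in clone 22 and 33.1 to 37.4 TPM in clone 15. Of Adipoq and Lep, which define fat cells, Lep was listed at 0 in every library of both 1151 groups. Adipoq was listed at 0 in the 1151 cells labelled knockout and averaged 0.026 TPM in those labelled re-expressing. The means of Plin1 (0.11 and 0.00756 TPM) and Fabp4 (0.159 and 0.0704 TPM, with overlapping libraries) went the other way from Cidec, in the same order of groups. Of the 5 acinar markers, Cela1, a pancreatic elastase gene, differed in the same direction as Rbp4 in line 2838, at 9.21 to 12.2 TPM in clone 42 and 11.5 to 13.6 TPM in clone 17, against 16.4 to 24.3 TPM in clone 22 and 21.4 to 28.8 TPM in clone 15. It did not pass over clone means (log2 change -0.86, limma adjusted p = 0.598) or over all clone pairs (0.0736). The other 4 (Cpa1, Prss1, Ptf1a and Pnlip), which define acinar cells, were listed at 0 in all libraries of line 2838. The part of these markers in the Rbp4 difference was not tested.

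Crabp2, which delivers retinoic acid to the nucleus, was hardly detected. It was at 0.151, 0.600 and 0.551 TPM in the 1151 libraries labelled knockout and listed at 0 in the 3 labelled re-expressing, and no 2838 library exceeded 0.372 TPM. A gene was tested where 3 or more libraries of a fit reached 1 TPM, which Crabp2 did not, and no fold is given. TPM keep no depth, so no limit can be set on the zeros.

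**Figure D2:**
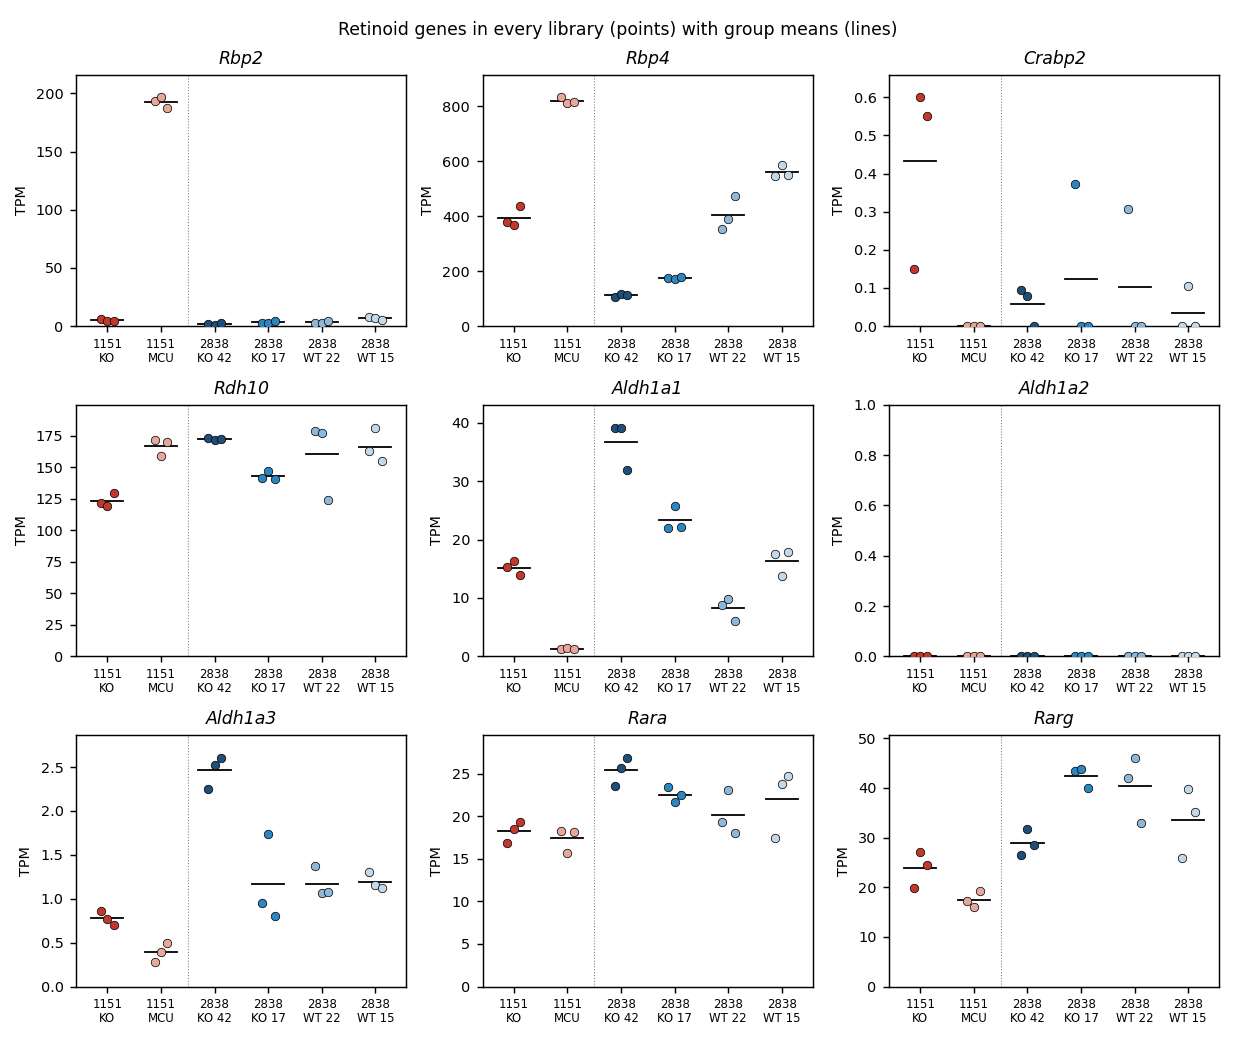
TPM of the 9 genes in every library (points) with the mean of each group of 3 (lines), on axes that start at 0 and differ between genes. KO, MCU and WT stand for labelled knockout, re-expressing and wild type. Rbp2 stands out in the 1151 re-expressing libraries (188 to 197 TPM), and Aldh1a1 is above 22 TPM in all 6 libraries of the 2838 clones labelled knockout, against at most 17.9 TPM in the wild-type clones.

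Among the enzymes, Aldh1a1 was the member with the largest tested change. This retinal dehydrogenase (chromosome 19, 20492715 to 20643465, plus strand) was at 15.4, 16.3 and 13.9 TPM in the 1151 libraries labelled knockout, against 1.29, 1.46 and 1.26 TPM in those labelled re-expressing. It rose with a log2 change of 2.79 (SE 0.09, limma adjusted p = 1.78e-06), higher in all 3 libraries. Chromosome 19, which also carries Rbp4, had a median log2 change of 0.52 over 416 genes in this contrast, and centring each library per chromosome left Aldh1a1 at 2.20. Rbp4 moved to -1.65 by that centring. Aldh1a1 and Rbp4 thus differed in opposite directions on the same chromosome.

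In line 2838 Aldh1a1 was at 39.1, 39.2 and 31.8 TPM in knockout clone 42 and 22.1, 25.7 and 22.1 TPM in knockout clone 17. It was at 8.75, 9.77 and 6.14 TPM in wild-type clone 22 and 17.6, 13.7 and 17.9 TPM in wild-type clone 15. Every library labelled knockout was above every library labelled wild type, as for 5.04% of the 11795 genes tested (either direction). Over clone means the log2 change was 1.27 (SE 0.35), and it did not pass (limma adjusted p = 0.516, under 0.05 before adjustment). By pair, clone 42 was higher than clone 22 by 2.05 (adjusted p = 5.45e-05) and than clone 15 by 1.12 (0.00206), and clone 17 was higher than clone 22 by 1.42 (0.00102). Clone 17 against clone 15 gave 0.49 (adjusted p = 0.121), which ended the call over all 4 pairs.

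That call depended on the libraries and the scaling. Without wild-type clone 22 replicate 3 all 4 pairs passed, with a mean change of 1.18 (limma adjusted p over the pairs = 0.0121), and with median-of-ratios scaling they passed with 1.19 (0.0335). Between clones of 1 label, Aldh1a1 was higher in clone 42 than in clone 17 (0.63, SE 0.18, adjusted p = 0.0346) and lower in clone 22 than in clone 15 (-0.93, SE 0.18, adjusted p = 0.0287). The difference between clones 42 and 17 no longer passed when any 1 of their 6 libraries was left out (adjusted p from 0.0503 to 0.123). The difference between clones 22 and 15 no longer passed without replicate 1 or 3 of clone 15 (0.0895 and 0.131), without replicate 1 of clone 22 (0.0589), or without any of 5 libraries of the knockout clones, which share the estimate of spread (0.0518 to 0.0575). Aldh1a1 shares 5.70% of its 4934 distinct stretches of 31 bases with its neighbour and close paralog Aldh1a7, so reads there could be split between the 2 genes. Aldh1a7, named here after its values were seen, averaged 0.56 and 0.335 TPM in 1151 cells labelled knockout and re-expressing. Among 2838 clones it averaged 12.4 and 14.2 TPM in knockout clones 42 and 17, against 4.71 and 6.70 TPM in wild-type clones 22 and 15.

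Aldh1a3 and Aldh1a2, the other retinal dehydrogenases, were low or absent from the values. Aldh1a2 (chromosome 9, 71215789 to 71296243) was listed at 0 in all 18 libraries. Aldh1a3 (chromosome 7, 66390890 to 66427517, minus strand) was under the filter in line 1151, with 0.776 ± 0.0823 TPM under the knockout label and 0.39 ± 0.109 TPM under the re-expressing label (SD, n = 3 each). Among 2838 clones Aldh1a3 was at 2.26, 2.53 and 2.61 TPM in knockout clone 42 and 0.953, 1.74 and 0.798 TPM in knockout clone 17, against 1.37, 1.06 and 1.08 TPM in wild-type clone 22 and 1.30, 1.16 and 1.12 TPM in wild-type clone 15. Clone 42 stood above every other library. It was higher than clone 17 (log2 change 0.70, SE 0.18, limma adjusted p = 0.0228), clone 15 (0.66, 0.0389) and clone 22 (0.68, 0.0394, or 0.65 and 0.0353 without replicate 3 of clone 22). The difference from clone 17 no longer passed without any 1 library of clone 42 or without replicate 1 or 3 of clone 17 (adjusted p from 0.0556 to 0.1). Clone 17 did not differ past the threshold from either wild-type clone (-0.02 and -0.04).

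Rdh10, which makes the retinal that these enzymes use (chromosome 1, 16105774 to 16133734, plus strand), was the most abundant of the enzymes in every group. It was at 121, 120 and 130 TPM in the 1151 libraries labelled knockout, against 172, 159 and 170 TPM in those labelled re-expressing. The groups did not overlap, and Rdh10 fell with a log2 change of -0.43 (SE 0.06, limma adjusted p = 6.56e-04). Rdh10 in line 2838 averaged 172 ± 0.867 TPM in knockout clone 42 and 143 ± 3.6 TPM in knockout clone 17, against 160 ± 31.0 TPM in wild-type clone 22 and 167 ± 13.6 TPM in wild-type clone 15 (SD, n = 3 each). The wide spread of clone 22 came from replicate 3, at 124 TPM against 179 and 177 TPM. The clone-mean change was -0.05 (SE 0.20, adjusted p = 0.999). Clone 42 was above clone 17 by 0.27 (adjusted p = 0.211), and by the same 0.27 with an adjusted p of 0.00663 once that library was left out of the shared estimate of spread. Without it clone 17 also passed as lower than clone 22 (-0.32, adjusted p = 0.0114) and than clone 15 (-0.22, 0.0254), which it did not with all libraries (-0.14, 0.547, and -0.22, 0.379).

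Of the receptor genes, Rarg passed in line 1151 and Rara did not. Rara (chromosome 11, 98927818 to 98974942, plus strand) was at 16.9, 18.5 and 19.4 TPM in the 1151 libraries labelled knockout, against 18.3, 15.7 and 18.2 TPM in those labelled re-expressing, and the groups overlapped (log2 change 0.06, SE 0.09, limma adjusted p = 0.546). In line 2838 it ran from 21.7 to 26.9 TPM in the libraries labelled knockout, against 17.5 to 24.8 TPM in those labelled wild type. The clone-mean change was 0.19 (SE 0.24). Rarg (chromosome 15, 102234938 to 102257517, minus strand) was at 19.8, 27.2 and 24.5 TPM in the 1151 libraries labelled knockout, against 17.2, 16.0 and 19.3 TPM in those labelled re-expressing. The groups did not overlap, and Rarg rose with a log2 change of 0.42 (SE 0.13, adjusted p = 0.0243).

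The rise of Rarg did not hold under all settings. Chromosome 15 had a median log2 change of 0.45 over 452 genes, and after centring per chromosome Rarg turned to -0.07 (limma adjusted p = 0.662). The adjusted p was 0.0508 with median-of-ratios scaling, 0.0718 and 0.0548 without replicate 2 or 3 labelled knockout, and 0.0655 and 0.0762 without replicate 1 or 2 labelled re-expressing. In line 2838 Rarg averaged 28.9 ± 2.58 TPM in knockout clone 42 and 42.4 ± 2.13 TPM in knockout clone 17, against 40.4 ± 6.69 TPM in wild-type clone 22 and 33.6 ± 7.09 TPM in wild-type clone 15 (SD, n = 3 each). The clone-mean change was -0.06 (SE 0.26, adjusted p = 0.999). Between clones 42 and 17 it was -0.54 (SE 0.17, adjusted p = 0.0524), which passed at the same change with the replicate block (0.0476) and without replicate 1 or 2 of clone 15 (0.0237 and 0.0473) or replicate 3 of clone 22 (0.00859), and at -0.53 with median-of-ratios scaling (0.0237). Without replicate 3 of clone 22, clone 42 was also lower than clone 22 (-0.59, adjusted p = 0.0153), against -0.46 (0.118) with it.

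Counted together, 4 of the 7 genes that did not choose the set could be tested in line 1151. Of these, 2 passed as higher (Aldh1a1 and Rarg) and 1 as lower (Rdh10), in a contrast where 61.0% of the 11630 genes tested passed, 34.0% as higher and 27.0% as lower. A share of 3 in 4 is near that background. Groups that did not overlap in any library were as common, at 67.2% of genes. In line 2838 no member passed over clone means (0 of 6 by limma, 1 at an unadjusted p under 0.05, and 0.0763% of all genes passed) or in all 4 clone pairs (0 of 6, 1 at an unadjusted p under 0.05, and 1.01% of all genes passed, 0.492% as higher and 0.517% as lower). The interaction, which tests whether the 1151 change differs from the 2838 change, called 0 of 5 members (0 at an unadjusted p under 0.05) beside 1.10% of all genes. It was fitted on group means, so each 1151 group is 1 value and the spread comes from the 2 clones per label of line 2838 alone. For Aldh1a1 that difference was 1.52 (SE 0.76, adjusted p = 0.476), for Rarg 0.47 (0.707) and for Rdh10 -0.38 (0.593).

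Clones of the same label differed as well. Between knockout clones 42 and 17, 3 of 7 members passed (Aldh1a1 and Aldh1a3 higher, Rbp4 lower), beside 17.2% of all genes (8.23% higher and 8.99% lower). Between wild-type clones 22 and 15, 1 of 7 passed (Aldh1a1, lower), beside 1.92% (0.577% higher and 1.34% lower). The median log2 change over all genes in that contrast was -0.16, so small negative changes there lie near the median. For Aldh1a1 the difference between the wild-type clones (-0.93) was larger in size than that between clones 17 and 15, which bear different labels (0.49).

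**Figure D3:**
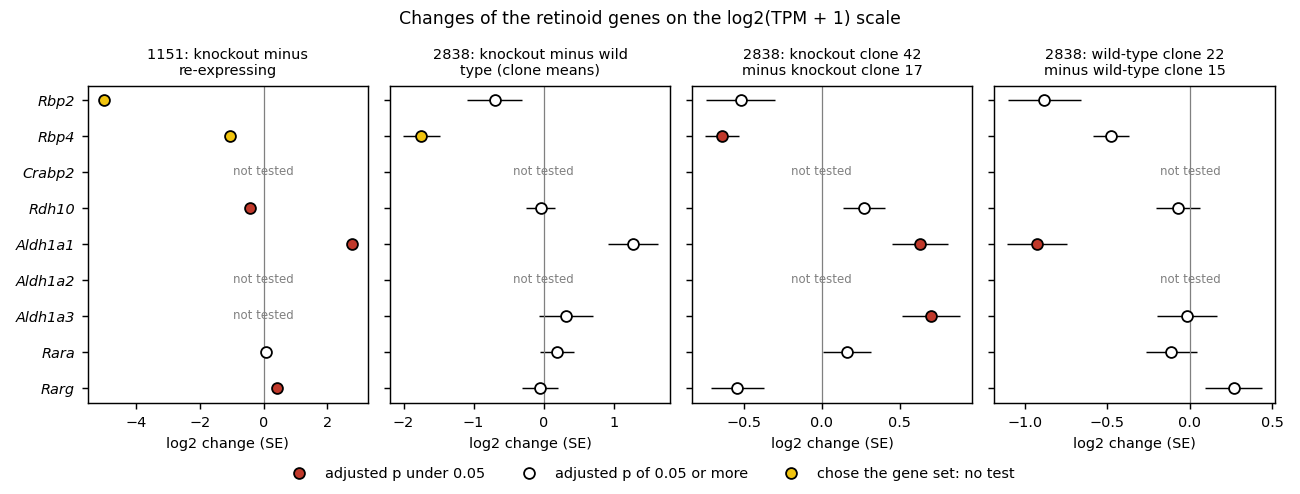
Log2 changes of TPM + 1 for the 9 genes in 4 contrasts, with SE as bars and a separate x axis in each panel. Red points passed an adjusted p of 0.05 (limma), white points did not, and yellow points chose the set and were not tested. Aldh1a1 passed in 3 of the 4 panels, with changes of 2.79, 0.63 and -0.93. Between clones of 1 label the sign depends only on which clone is subtracted.

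Expressed genes near Rbp2 and Rbp4 were followed as well. Around Rbp2 they were Nmnat3 (65.7 kb before it on the chromosome), Copb2 (53.9 kb after) and Gm47147 (65.5 kb after). In line 1151 their log2 changes ran between -0.07 and 0.05, and none of the 3 passed (limma). Around Rbp4, Cep55 (0.76, adjusted p = 2.38e-04) and the fatty-acid receptor gene Ffar4 (0.74, adjusted p = 6.06e-04), which ends 2.37 kb before Rbp4, rose in line 1151. Fra10ac1, 63.2 kb after, rose by 0.26 (adjusted p = 0.0189), and Slc35g1 gave -0.14 (adjusted p = 0.0669). Ffar4 was at 54.6, 64.5 and 59.5 TPM in the 1151 libraries labelled knockout, against 35.2, 39.2 and 31.4 TPM in those labelled re-expressing. Ffar4 in line 2838 averaged 0.855 and 0.556 TPM in knockout clones 42 and 17, against 2.20 and 4.06 TPM in wild-type clones 22 and 15 (clone-mean log2 change -1.26, adjusted p = 0.583, and 0.0531 over all clone pairs).

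**Figure D4:**
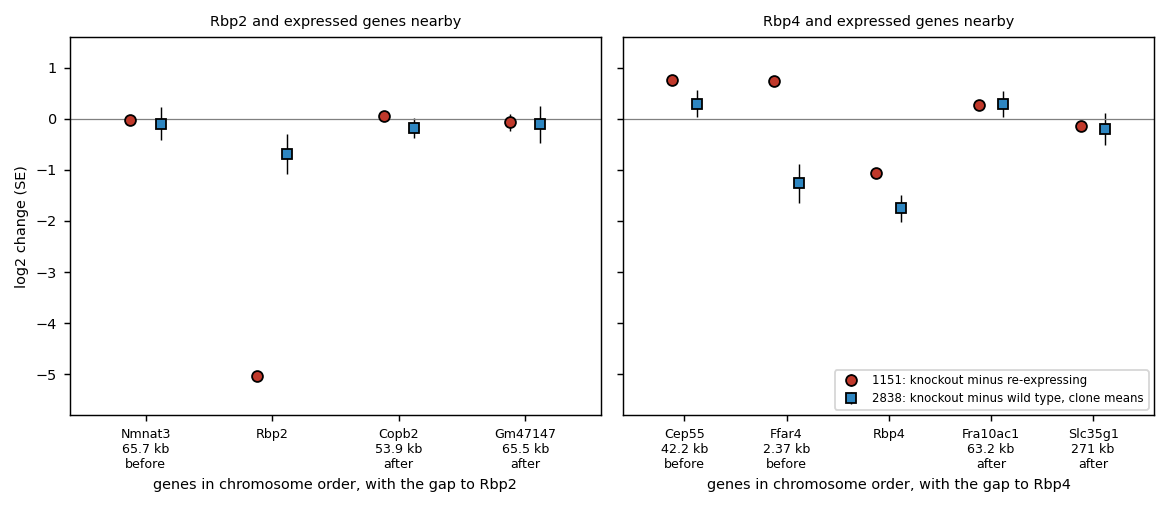
Log2 change of TPM + 1 (SE as bars) of Rbp2, Rbp4 and expressed genes near them, in chromosome order with the gap to the member in kb. Circles are line 1151 (labelled knockout minus re-expressing) and squares line 2838 (clone means). Rbp2 lies at -5.03 in line 1151 while the 3 genes near it lie between -0.07 and 0.05.

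The rest of the retinoid pathway was followed in a list of 67 further genes in 5 classes. In line 1151, 38 of the 67 were tested, of which 11 rose, 13 fell and 14 did not pass. These 24 calls are 63.2% of the genes tested, beside 61.0% of all genes, and the median log2 change was -0.07, beside 0.05 over all genes. These calls, and the counts by class, include Adh7, Adh1, Dhrs3, Dhrs9, Ttr and Lrp2. Those genes met the filter only through the group where they were high, so the share and the counts are a description. By class, 2 rose and 7 fell of 12 oxidoreductases that convert retinol and retinal (median -0.35), and 5 rose and 1 fell of 11 receptors and cofactors (median 0.21). Of 7 genes of retinol uptake, storage and transport, 2 rose and 1 fell. Of 8 genes described as retinoic acid targets, 2 rose and 4 fell, and no breakdown enzyme was tested.

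Of the list genes in line 1151, enzymes that act on retinol or retinal are given first. Adh7, an alcohol dehydrogenase that oxidises retinol in stomach epithelium, was at 0.0606, 0.0238 and 0.136 TPM in the libraries labelled knockout, against 20.6, 16.6 and 17.9 TPM in those labelled re-expressing (log2 change -4.17, SE 0.11). Adh1, another such enzyme, fell to 0.0709 ± 0.0718 TPM in cells labelled knockout, against 2.46 ± 0.155 TPM in cells labelled re-expressing (-1.69). Dhrs3, which reduces retinal back to retinol, fell to 0.686 ± 0.422 TPM in cells labelled knockout, against 2.31 ± 0.461 TPM (-0.99). The retinol dehydrogenase gene Rdh14 also fell (-1.07). Dhrs9, a retinol dehydrogenase, rose to 3.81 ± 0.383 TPM in cells labelled knockout, against 0.596 ± 0.145 TPM (1.59), as did Akr1b3, the aldose reductase (1.39). Adh7, Adh1, Dhrs3 and Dhrs9 met the filter in this line only through the group where they were high. Their changes are therefore a description, with no p-value.

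Other pathway genes moved both ways in line 1151. Ttr, transthyretin, the plasma partner of RBP4 and also on the hepatocyte list, fell to 0.432 ± 0.21 TPM in cells labelled knockout, against 5.78 ± 0.565 TPM in cells labelled re-expressing (-2.25). Lrp2, the endocytic receptor megalin, rose to 2.58 ± 0.267 TPM in cells labelled knockout, against 0.00681 ± 0.00864 TPM (1.83). Ttr and Lrp2 also met the filter only through the group where they were high, so no p-value is given for them. Retsat, retinol saturase, rose (0.89), as did the coactivator gene Ep300 (0.94) and Pdk4, a kinase of pyruvate dehydrogenase (1.21). Cd38, an NAD-consuming ectoenzyme induced by retinoic acid in leukaemia cells, fell (-2.19). Rxra, the main partner receptor gene, fell to 11.6 ± 1.24 TPM in cells labelled knockout, against 16.4 ± 0.656 TPM (-0.48, limma adjusted p = 0.00317).

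In line 2838, 0 of 38 list genes passed over clone means (limma, 1 at an unadjusted p under 0.05) and 0 of 38 in all 4 clone pairs (0 at an unadjusted p under 0.05), beside 0.0763% and 1.01% of all genes.

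The receptor gene Rarb and the breakdown enzyme genes were barely detected. Rarb, itself a known target of retinoic acid, was listed at 0 in all 12 libraries of line 2838 and averaged 0.0584 and 0.0394 TPM in 1151 cells labelled knockout and re-expressing. Cyp26a1, another classical target, averaged at most 0.136 TPM in any group. Cyp26b1 averaged 0.709 ± 0.178 and 0.0427 ± 0.046 TPM in 1151 cells labelled knockout and re-expressing, under the filter there. In line 2838 it was higher in knockout clone 42 (1.82 ± 0.19 TPM) than in knockout clone 17 (0.313 ± 0.0899 TPM), with a log2 change of 1.10, against 0.319 ± 0.161 and 0.334 ± 0.0179 TPM in wild-type clones 22 and 15 (SD, n = 3 each). It met the filter in this line only through the libraries of clone 42, so this change is a description, with no p-value.

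Between knockout clones 42 and 17, 3 list genes were higher and 7 lower of 38, or 26.3%, beside 17.2% of all genes. Besides Cyp26b1, which met the filter through clone 42 alone, the higher ones were Foxa1 (1.00) and the fatty-acid and retinoic acid carrier gene Fabp5 (0.61). The lower ones included 6 of the 11 oxidoreductases tested, among them Dhrs7 (-1.34), Dhrs9 (-0.95), Rdh5 (-0.93), Adh7 (-0.68) and Dhrs3 (-0.45), and Ttr (-1.09). Between wild-type clones 22 and 15, 3 of 38 passed, all lower: Ttr (-1.94), Adh7 (-1.42) and Fabp5 (-1.24). Those 3 are 7.89% of the list genes tested, beside 1.92% of all genes. Adh7 and Ttr thus also differed between clones of 1 label.

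**Figure D5:**
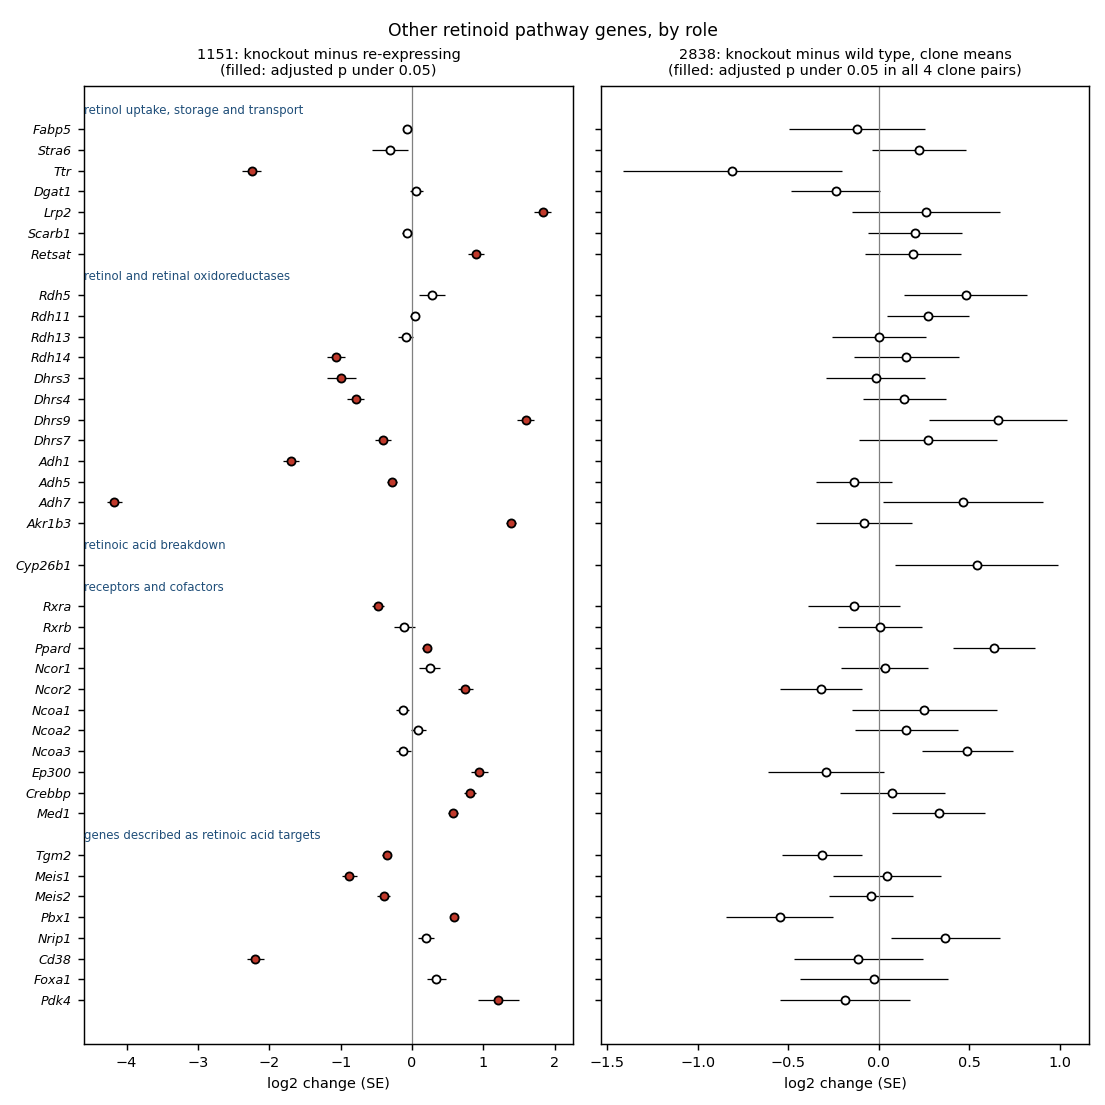
Log2 changes of TPM + 1 (SE as bars) of the list genes that passed the filter, by class, in line 1151 (left, labelled knockout minus re-expressing) and line 2838 (right, clone means). Filled points had an adjusted p under 0.05, on the right in all 4 clone pairs. On the left 11 filled points lie right of 0 and 13 left of it, and on the right none is filled. The filled points include Adh7, Adh1, Dhrs3, Dhrs9, Ttr and Lrp2, which met the filter only through the group where they were high.

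The genes whose log2(TPM + 1) levels ran most like those of Rbp2 and Rbp4 over the 18 libraries were listed from 10140 genes, as a description. The libraries share lines, clones and batches, so the coefficients reflect differences between groups. For Rbp2 they were Amdhd1, an enzyme of histidine breakdown (Pearson r = 0.987), the engulfment adaptor gene Gulp1 (0.975), Gipc3 (0.974), Scarf2 (0.974) and the neuronal pentraxin gene Nptx1 (0.973). All 5 averaged 5.11 to 16.3 TPM in 1151 cells labelled re-expressing and under 1 TPM in the other 5 groups. For Rbp4 they included Gpx8, a peroxidase of the endoplasmic reticulum (r = 0.959), Slc25a45 (0.953), the progranulin gene Grn (0.936) and Ppp2r3d (0.896). Gpx8 averaged 6.64 and 14.7 TPM in 1151 cells labelled knockout and re-expressing. In line 2838 Gpx8 averaged 0.383 and 0.436 TPM in knockout clones 42 and 17, against 3.87 and 7.58 TPM in wild-type clones 22 and 15.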

How the data were processed

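PolyA RNA of 18 libraries was sequenced. The deposited unit is TPM per gene symbol; the submitters' processing notes name Salmon, DESeq2 and mm10, and versions are not given in the sources used here. TPM keep no depth, and columns summed to between 998353 and 998961, so the depth of each library is unknown and no interval or floor from counts is given. The design text states a common paired-end depth target, which was not used.

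From the deposited TPM values, log2(TPM + 1) was fitted with limma 3.58.1 (R 4.3.3, variance prior with trend) within each line, keeping genes of at least 1 TPM in at least 3 libraries of the fit, with Benjamini-Hochberg adjustment over all genes tested and a threshold of 0.05. Line 2838 was compared over its 4 clone means, and by asking that all 4 clone pairs pass in the same direction in a fit of its 12 libraries. In that fit p-values were adjusted over all genes within each pair, and the largest of the 4 adjusted p-values is the one given. Clones of the same label were contrasted in that fit. The interaction compared the 6 group means. The scripts were tested on simulated data.

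Replicate numbers do not pair samples here: no label ties a number to a shared batch, and the correlations of same-numbered deviations ran from -0.166 to 0.221. Alternatives were another pseudocount (0.1 TPM), no filter, a stricter filter (mean of 5 TPM or more), centring per chromosome, median-of-ratios scaling, no variance trend, a replicate block and leaving out each library or clone; leaving out clones for the all-pairs counts was chosen after seeing the data. The members and lists were chosen with earlier results of these data known. Named were all members, the list genes called with the largest changes (up to 6 each way in a contrast), Rarb, Rxra, Cyp26a1, Cyp26b1 and Dhrs3 whatever their values, and the 5 genes most like Rbp2 and Rbp4. An item that these rules also name is not reported here. Coordinates are from GENCODE M21 and promoters from RefSeq, both on GRCm38.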

Additional observations from a re-analysis of the deposited data

How the results depend on the processing

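The depth of the libraries is unknown, 3 libraries a group and 2 clones a label limit the precision, and RNA says nothing of protein or retinoic acid. Of 818 recomputed log2 changes of members, 735 kept their direction and their side of the threshold (or, untested, moved by less than 1 SD). The causes of the other changes were not tested. Of members in line 1151, 5 passed with no filter, as Crabp2 and Aldh1a3 joined. Over 2838 clone means 1 member passed without clone 17, where the knockout arm is 1 clone assumed to vary like the others and 398 genes passed, against 9 with all clones. Over all clone pairs 1 passed with median-of-ratios scaling or without clone 15, 2 without clone 17 or clone 22, and 0 to 1 when 1 library was left out. List genes called in all pairs numbered 1 without clone 17 or clone 42, 7 without clone 22, and 0 to 1 when 1 library was left out (1 without wild-type clone 22 replicate 3). Between clones 42 and 17 the members called ranged from 1 to 6 when 1 library was left out (6 without wild-type clone 22 replicate 3). Between clones 22 and 15 they ranged from 0 to 3 likewise, and were 2 with no filter and 0 with the replicate block (Aldh1a1 adjusted p = 0.0515, limma). The replicate block left the other counts of members and list genes within 1.5 times, and moved the count over all genes between clones 22 and 15 to 145, against 226 without it.

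Small changes turned sign. In line 1151 Rara was -0.00542 with median-of-ratios scaling and -0.00337 to 0.117 when 1 library was left out, and Rarg -0.0723 when centred per chromosome. In line 2838 Aldh1a3 was -0.0337 without clone 42, Rdh10 0.0883 without clone 17, and Rarg 0.215 without clone 42, 0.077 without clone 22 and -0.141 to 0.00973 when 1 library was left out. Between clones 22 and 15, median-of-ratios scaling and centring per chromosome gave 0.0765 and 0.103 for Aldh1a3, 0.0937 and 0.135 for Rdh10 and 0.0454 and 0.0789 for Rara. Leaving out 1 library gave -0.0836 to 0.0189 for Aldh1a3 and -0.161 to 0.1004 for Rdh10 there, and -0.0225 to 0.13 for the interaction of Aldh1a3.

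Over all genes, the number called ranged over the alternatives from 5925 to 7391 in line 1151, 0 to 398 over clone means, 65 to 1303 over all pairs, 1161 to 4887 between clones 42 and 17, 85 to 807 between clones 22 and 15, and 0 to 1220 for the interaction, so the percentages given as background move with them. Centring per chromosome moved the split of higher and lower calls over all pairs to 52 and 118 (58 and 61 without it) and between clones 22 and 15 to 95 and 133 (68 and 158).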
